A study of Homo sapiens with 10 samples.

Results

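The 49 genes described here encode the machinery that copies DNA and the cyclins, E2F factors and nucleotide enzymes that accompany entry into S phase. They were chosen by symbol, as the gene rows of the paired-end count table that map to a list of replication and S-phase genes. All 49 were found among 58051 gene rows, and all 49 passed the filter on low counts that left 20747 genes and repeat subfamilies to be tested. Their lowest count in any paired-end library was 746, and their mean levels in wild type ran from 24.7 to 558 CPM, counts scaled by library size.

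RNA came from HAP1, a human line with a near-haploid genome that descends from the leukaemia line KBM-7. The groups were wild type HAP1 (3 paired-end libraries), RBM4 knockout clone 1 (3 libraries) and RBM4 knockout clone 2 (2 libraries), with 1 further wild type and 1 further knockout library sequenced single-end. The series title gives the aim as a search for genes whose expression differs between the wild type and RBM4 knockout cells. Each knockout group is 1 clone, so the effect of the knockout and of the clone's own history cannot be told apart within a clone. The labels do not say whether the replicates were separate cultures, and the p-values measure only the variation among these libraries, part or all of which may be technical.

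Replication begins when the origin recognition complex, CDC6 and CDT1 load the ring of MCM2 to MCM7 onto DNA, a step called licensing. The kinase CDC7 with its activator DBF4, together with cyclin-dependent kinases, then fires the origins: CDC45 and the GINS complex join the ring to form the active helicase. Polymerase alpha and primase start each strand, the RFC complex loads the PCNA sliding clamp, polymerases delta and epsilon extend the strands, and FEN1 and LIG1 join the Okazaki fragments. E2F transcription factors, held back by RB1 until cyclin D and cyclin E kinases act, are known to drive many of these genes at the entry to S phase.

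Because E2F control is the best known feature that these genes share, the RefSeq promoters (GRCh38.p14, 250 bases before to 50 bases after each start) were searched for the E2F words TTTCGCGC, TTTGGCGC, TTTCCCGC and TTTGCCGC on both strands, with overlapping matches allowed. Promoters were found for 42 of the 49 genes, 53 promoters in all. The unmatched genes were MCM4, MCM5, CCNE2, RPA2, RPA3, POLD3 and GINS4. In total, 22 of the 53 (41.5%) held at least 1 E2F word. The same words stood in 3.31% of all 35116 promoters in the table and in 4.81% of the 17221 promoters of tested genes. The windows below, 5′ to 3′ on the gene's strand with the E2F word in capitals, come from 2 genes whose RNA fell in the knockout (CDC7 and RFC3) and 3 whose RNA did not pass the test (MCM6, PCNA and E2F1). Distances are from the RefSeq start of the promoter that holds the window. CDC7 has another RefSeq promoter (chr1:91500601-91500900), with an earlier start and no E2F word, which ends before both windows. In GENCODE 29, with earlier starts, the CDC7 and RFC3 windows lie within the bounds of their genes and the E2F1 window overlaps its gene. In the MCM6 window a further E2F word, 148 bases upstream, overlaps the one in capitals and is not marked. More words of MCM6, at 90 and 86 bases upstream, and of E2F1, at 33, are not shown.
CDC7, chr1:91501033-91501062, plus strand, 68 bases upstream: gtgcagttcctTTTCCCGCcccccttcgga
CDC7, chr1:91501067-91501096, plus strand, 34 bases upstream: tccgacctgcgGCGGGAAAgtcgcgcgcct
RFC3, chr13:33818083-33818112, plus strand, 55 bases upstream: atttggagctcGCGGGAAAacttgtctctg
MCM6, chr2:135876577-135876606, minus strand, 152 bases upstream: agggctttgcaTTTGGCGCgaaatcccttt
PCNA, chr20:5126663-5126692, minus strand, 59 bases upstream: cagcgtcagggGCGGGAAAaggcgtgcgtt
E2F1, chr20:33686387-33686416, minus strand, 20 bases upstream: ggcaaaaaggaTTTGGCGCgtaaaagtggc

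An E2F word was present in the promoters of 5 of the 10 genes with a promoter that fell in the mean of the clones (CDC7, RFC3, MCM2, POLE2 and GINS1), and of 17 of the 32 that did not pass that test. The CCAAT box (CCAAT, both strands) stood in 52.8% of the members' promoters and in 34.2% of those of tested genes. The cell cycle homology word TTTGAA, known from genes of the later cell cycle, stood in 3.77% and 10.4%. A match of this kind describes the letters of the window and is neither a site nor a cause.

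Total counts per paired-end library ran from 33192095 to 55617525. The coefficient of variation of the members over the 3 wild type libraries ran from 0.428% to 7.61%, with a median of 3.04%. RBM4, the targeted gene, stood at 79.9, 79.8 and 78.7 CPM in wild type, against 22.3, 22.9 and 24.5 in clone 1 and 25.3 and 25.8 in clone 2. Of 9 blood cell markers, 8 stayed under 0.3 CPM in every library and MPO and HBG1 were among those with no counts in wild type, although HAP1 descends from a leukaemia line. The epithelial marker CDH1 had no counts in the paired-end wild type libraries and 1 in the single-end one. Of the 4 epithelial markers that could be tested 3 rose in the mean of the clones (KRT8, KRT18 and CLDN7). Of all features, 9.87% were called higher. KRT8 went from 4.10 CPM in wild type to 5.31 in clone 1 and 14.4 in clone 2. CLDN7 was near the floor, at 9, 7 and 4 counts in the paired-end wild type libraries. It was not called in clone 2 (edgeR adjusted p = 0.165) or with GC correction (0.0539), and had 63 and 63 counts in the single-end pair. The fourth, EPCAM, was not called in the mean of the clones (-0.08) but was lower in clone 2 than in clone 1 (log2 difference -1.27, adjusted p = 0.00942). Of 6 fibroblast markers, COL1A1 alone exceeded 0.2 CPM in any library and rose from 13.4 to 19.7 and 26.3 CPM. The part of these marker changes in the results on the replication genes was not tested.

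In wild type, levels compared between genes as CPM per kilobase of merged exon spanned a wide range, as the plot of levels per length shows. PCNA was the highest at 205 ± 8.81 (SD, n = 3) CPM per kb, followed by MCM7 at 127 ± 3.40 and TYMS, which makes thymidylate, at 118. RRM2, the regulated subunit of ribonucleotide reductase, stood at 104 CPM per kb, and PRIM2, the large primase subunit, was the lowest at 5.28. The median member stood at 24.4 CPM per kb. Within the MCM ring, whose subunits are used in equal numbers, the RNA levels were not equal: MCM3 stood at 89.7 ± 3.95, MCM2 at 78.3 ± 2.26, MCM4 at 77.8 ± 0.785, MCM6 at 55.6 ± 1.02 and MCM5 at 31.7 ± 1.51 CPM per kb. MCM2 and MCM4 did not differ beyond their spread. With the length of the longest transcript in place of merged exons, MCM4 stood at 130, MCM2 at 106 and MCM3 at 102, so the order of these 3 depends on the length used. On that scale PCNA was still the highest (222), and PRIM2 (10.7) stood above ORC4 (9.30) and GINS3 (9.30).

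**Figure D1:**
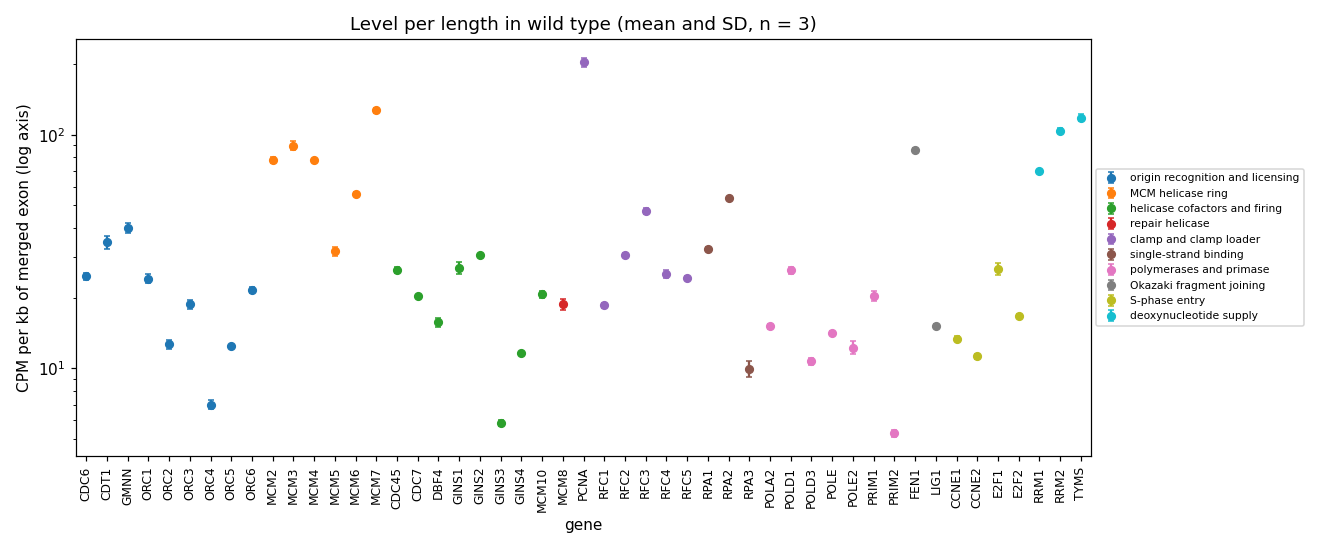
Level of each of the 49 genes in wild type, as CPM per kb of merged exon on a log axis (points: mean of 3 libraries, bars: SD), ordered and coloured by role. PCNA is the highest at 205 and PRIM2 the lowest at 5.28 CPM per kb.

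The first comparison asked how these genes differed between the mean of the 2 clones and wild type. Of the 49 genes, 13 fell and 0 rose. Each was tested with edgeR's quasi-likelihood test over all 20747 features, called at a Benjamini-Hochberg adjusted p below 0.05. Of all features tested, 8.09% were called lower and 9.87% higher. At an unadjusted p below 0.05, 19 genes were lower and 0 higher, and DESeq2 called 12 lower and 0 higher. The shares of all features under those settings are not given here, so these counts cannot be read alone. The median log2 fold change of the 49 was -0.09, against 0.00 over all features, and 37 of the 49 had a negative value. The falls were small: apart from CDC7, which was 30.1% lower, the called genes were between 10.5% (ORC6) and 17.6% (CCNE2) lower. Leaving out wild type replicate 1 reduced the 13 to 7, where 3.87% of all features were then called lower, with the calls of MCM2, ORC2, ORC6, RFC3, POLE2 and RRM2 lost. Of these 6, all but POLE2 also lost the call without other single libraries of wild type or clone 2.

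In 16 of the 49 genes every knockout library lay below every wild type library, where 11.8% of all features did so. They were the 13 called genes and 3 uncalled ones (MCM6, RRM1 and GINS4). In 0 of the 49 did every knockout library lie above wild type, against 13.5% of all features. Summed over the 49 genes, the level was 7159, 7205 and 7389 CPM in wild type, against 7017, 6878 and 6590 in clone 1 and 6666 and 6709 in clone 2, and the groups did not overlap. In bulk RNA, a smaller share of cells in S phase and less RNA per cell cannot be told apart.

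**Figure D2:**
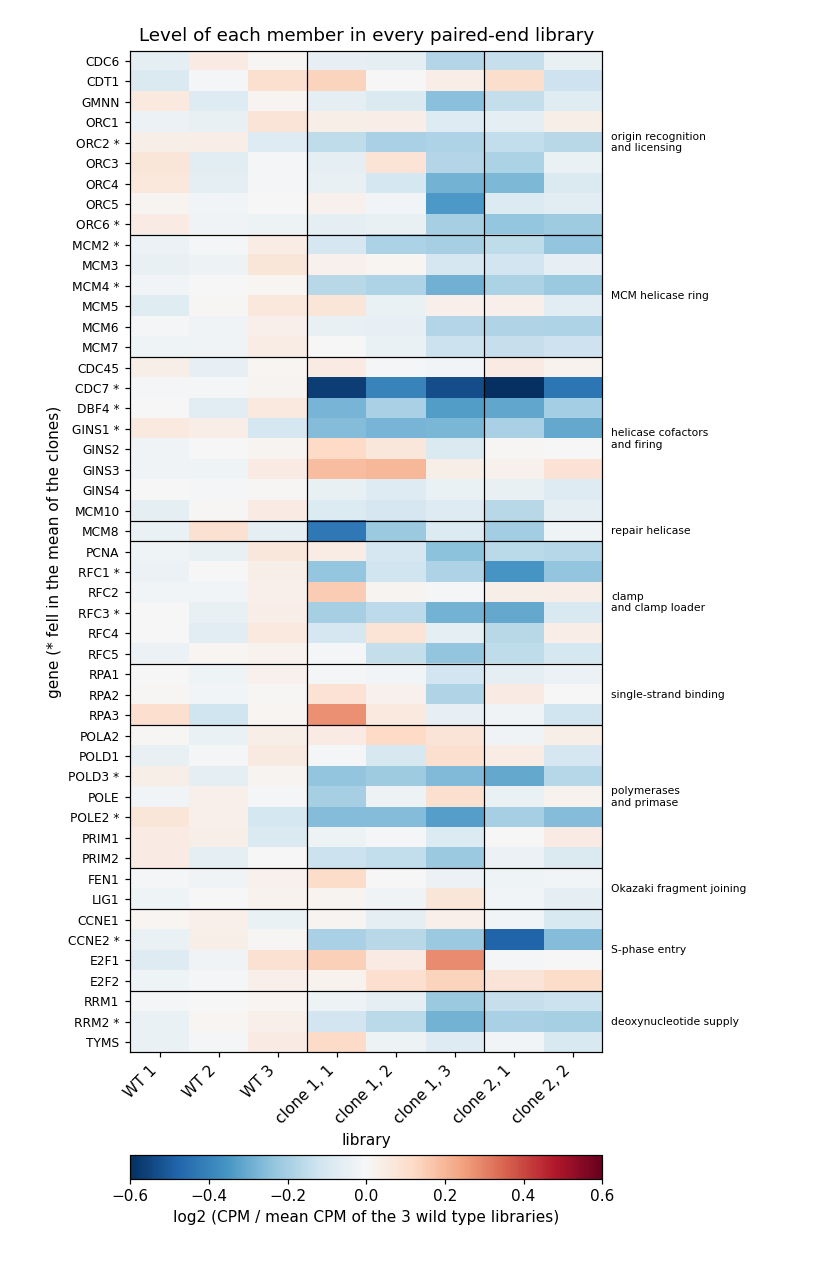
Level of each of the 49 genes in the 8 paired-end libraries, as the log2 ratio of CPM to the wild type mean (colour), with genes grouped by role and an asterisk on the 13 that fell. CDC7 is the darkest row, with all 5 knockout libraries below wild type, and FEN1 and LIG1 are near 0.

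Among the 8 helicase cofactors and origin firing genes, 3 fell and 5 did not pass the test (median log2 fold change -0.08). CDC7 (ENSG00000097046, chr1:91500893-91525764, plus strand), the kinase that phosphorylates the MCM ring to fire origins, stood at 72.3, 72.4 and 73.8 CPM in wild type. It stood at 49.2, 55.2 and 50.3 CPM in clone 1 and at 46.4 and 53.9 CPM in clone 2. The highest knockout library was thus well below the lowest wild type library. The log2 fold change was -0.52 (SE 0.058, 95% interval -0.64 to -0.39, adjusted p = 4.31e-05), the largest of the 49.

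DBF4 (ENSG00000006634, chr7:87876216-87909541, plus strand), the regulatory subunit that CDC7 needs for activity, stood at 72.3, 69.0 and 75.1 CPM in wild type, against 59.4, 62.9 and 57.2 in clone 1 and 58.1 and 62.6 in clone 2. Both subunits of this kinase were thus lower in all 5 knockout libraries. The log2 fold change of DBF4 was -0.26 (SE 0.052, adjusted p = 0.00366). GINS1, a subunit of the 4-part GINS complex, stood at 115, 113 and 102 CPM in wild type, against 91.8, 90.6 and 90.8 in clone 1 and 96 and 88.9 in clone 2 (a log2 fold change of -0.26, SE 0.051, adjusted p = 0.00321). Its partners did not pass the test: GINS2 was at 0.02, GINS3 at 0.10 and GINS4 at -0.06. CDC45, which joins the ring beside GINS, was at 0.02 and MCM10, an initiation factor, at -0.10, neither called.

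In the MCM helicase ring 2 of 6 subunits fell (median log2 fold change -0.12). MCM4 stood at 537, 543 and 548 CPM in wild type, against 483, 476 and 444 in clone 1 and 475 and 464 in clone 2 (a log2 fold change of -0.21, SE 0.046, adjusted p = 0.00699). MCM2 stood at 375, 380 and 396 CPM in wild type, against 358, 337 and 334 in clone 1 and 345 and 326 in clone 2 (-0.18, SE 0.047, adjusted p = 0.0190). The MCM4 groups lay further apart than those of MCM2, whose clone 1 replicate 1 approached wild type. MCM6 was at -0.14 (adjusted p = 0.0590), MCM7 at -0.09, MCM3 at -0.05 and MCM5 at 0.00, with a 95% interval of -0.11 to 0.11 for MCM5. MCM8, a helicase of recombinational repair and not part of the ring, stood at 141, 154 and 140 CPM in wild type, against 108, 124 and 137 in clone 1 and 125 and 142 in clone 2. Its groups overlapped (-0.18, SE 0.075, adjusted p = 0.133).

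Of the 9 genes of origin recognition and licensing, 2 fell (median log2 fold change -0.09), and both lost the call under several alternatives. ORC2 stood at 75.9, 76.3 and 70.1 CPM in wild type, against 66.8, 64.8 and 65.3 in clone 1 and 66.8 and 66.1 in clone 2 (a log2 fold change of -0.17, SE 0.047, adjusted p = 0.0257). ORC6, given here to complete the count after its values were seen, stood at 96.7, 92.3 and 91.6 CPM in wild type, against 90, 90.7 and 81.5 in clone 1 and 79.5 and 80.6 in clone 2 (-0.16, SE 0.050, adjusted p = 0.0393). The call of ORC6 ended under 9 of 20 alternatives and that of ORC2 under 8. ORC1 was at 0.00, ORC3 at -0.08, ORC4 at -0.16 and ORC5 at -0.09, none called.

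The loading factors and their inhibitor did not pass the test. CDC6, the ATPase that helps load the ring, stood at 132, 143 and 138 CPM in wild type, against 133, 132 and 122 in clone 1 and 125 and 134 in clone 2 (log2 fold change -0.09, adjusted p = 0.227). CDT1, which brings the ring to the origin, stood at 109, 115 and 124 CPM in wild type, against 127, 116 and 119 in clone 1 and 125 and 106 in clone 2 (0.03, 95% interval -0.11 to 0.16, adjusted p = 0.819). GMNN, which encodes the CDT1 inhibitor geminin, stood at 103, 93.9 and 100 CPM in wild type, against 95.3, 93.2 and 83.3 in clone 1 and 89.8 and 94.3 in clone 2 (-0.12, adjusted p = 0.166). In all 3 genes the wild type and knockout values overlapped.

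Among the 6 genes of the clamp and clamp loader 2 fell (median log2 fold change -0.13). RFC1, the large loader subunit, stood at 122, 125 and 128 CPM in wild type, against 107, 115 and 110 in clone 1 and 98.1 and 106 in clone 2 (a log2 fold change of -0.24, SE 0.048, adjusted p = 0.00438). RFC3, a small subunit, stood at 136, 132 and 140 CPM in wild type, against 118, 122 and 112 in clone 1 and 110 and 127 in clone 2 (-0.20, SE 0.055, adjusted p = 0.0215). The groups did not overlap in either gene, although clone 2 replicate 2 came close to wild type in RFC3. RFC2 was at 0.05, RFC4 at -0.04 and RFC5 at -0.13, none called. PCNA, the clamp itself, stood at 295, 292 and 316 CPM in wild type, against 310, 281 and 254 in clone 1 and 269 and 268 in clone 2. Clone 1 replicate 1 lay within the wild type range (-0.13, SE 0.061, adjusted p = 0.157), and without that library PCNA was called (adjusted p = 0.0259, in a range of 0.0256 to 0.574 over 20 alternatives).

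Of the 7 polymerase and primase genes, 2 fell (median log2 fold change -0.02), both encoding accessory subunits. POLE2, the second subunit of polymerase epsilon, stood at 38.2, 37.1 and 33.7 CPM in wild type, against 30.4, 30.4 and 28.9 in clone 1 and 31.6 and 30.3 in clone 2 (a log2 fold change of -0.26, SE 0.056, adjusted p = 0.00661). POLD3, an accessory subunit of polymerase delta, stood at 60.4, 56.9 and 59.8 CPM in wild type, against 50.1, 50.9 and 49.2 in clone 1 and 47.8 and 52.4 in clone 2 (-0.24, SE 0.050, adjusted p = 0.00512). Neither gene's groups overlapped. The catalytic subunits POLE and POLD1 were at -0.02 and -0.01. With GC correction POLD1 was called lower (-0.13, adjusted p = 0.0232), POLE was at -0.12 (adjusted p = 0.215) and the median of the 7 genes was -0.12. The contrast of accessory and catalytic subunits thus depends on that correction. POLA2 was at 0.05, the primase catalytic subunit PRIM1 at -0.01 and PRIM2 at -0.11, none called. POLA1, the catalytic subunit of polymerase alpha and not among the 49, did fall (-0.18, adjusted p = 0.0157), a call that ended with GC correction (-0.12). POLA2 shares 35.1% of its exon bases with another annotated gene on the same strand, so its value is uncertain.

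The single-strand binding and Okazaki fragment genes gave no call, in edgeR, in DESeq2 or at an unadjusted p below 0.05. RPA1 stood at 178, 176 and 182 CPM in wild type, against 178, 177 and 165 in clone 1 and 172 and 174 in clone 2 (log2 fold change -0.05, 95% interval -0.14 to 0.05). RPA2 was at 0.00 and RPA3 at 0.01. LIG1, the ligase that seals Okazaki fragments, stood at 98.4, 100 and 102 CPM in wild type, against 101, 98.6 and 105 in clone 1 and 98.9 and 96.5 in clone 2. Its interval, -0.10 to 0.09, and that of the flap nuclease FEN1 around 0.00 bound any difference to a smaller size than the fall of CDC7.

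Of the 4 genes of S-phase entry, cyclin E2 fell and cyclin E1 did not pass the test. CCNE2 stood at 48.3, 50.8 and 49.9 CPM in wild type, against 43.4, 44.3 and 42.6 in clone 1 and 35.6 and 41.4 in clone 2 (a log2 fold change of -0.28, SE 0.056, adjusted p = 0.00377). CCNE1, which activates the same kinase, CDK2, stood at 34.5, 34.9 and 33.2 CPM in wild type, against 34.6, 32.9 and 34.9 in clone 1 and 33.8 and 32.1 in clone 2 (-0.03, 95% interval -0.14 to 0.08, adjusted p = 0.757). The difference between the 2 cyclins was not tested. E2F1 stood at 63.4, 65.9 and 71.4 CPM in wild type, against 73.9, 69.2 and 81.4 in clone 1 and 66.4 and 66.9 in clone 2 (0.08, 95% interval -0.05 to 0.21, adjusted p = 0.409). E2F2 was at 0.09 (adjusted p = 0.197). The exons of CCNE2 share 37.1% of their bases with INTS8 on the opposite strand, and whether strand was used in counting is unknown here, so its value is uncertain.

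In the supply of deoxynucleotides 1 of 3 genes fell. RRM2 stood at 539, 558 and 566 CPM in wild type, against 511, 496 and 456 in clone 1 and 484 and 483 in clone 2 (a log2 fold change of -0.19, SE 0.050, adjusted p = 0.0173). RRM1, the catalytic subunit that RRM2 partners, was at -0.12 (adjusted p = 0.135) with every knockout library below wild type. TYMS was at -0.02, and 39.2% of its exon bases overlap ENOSF1 on the opposite strand. RRM2 shares 20.2% of its exon bases with another annotated gene on its own strand, while MCM2 shares 22.7% and GINS4 21.2% with an antisense gene, so these values are uncertain too.

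**Figure D3:**
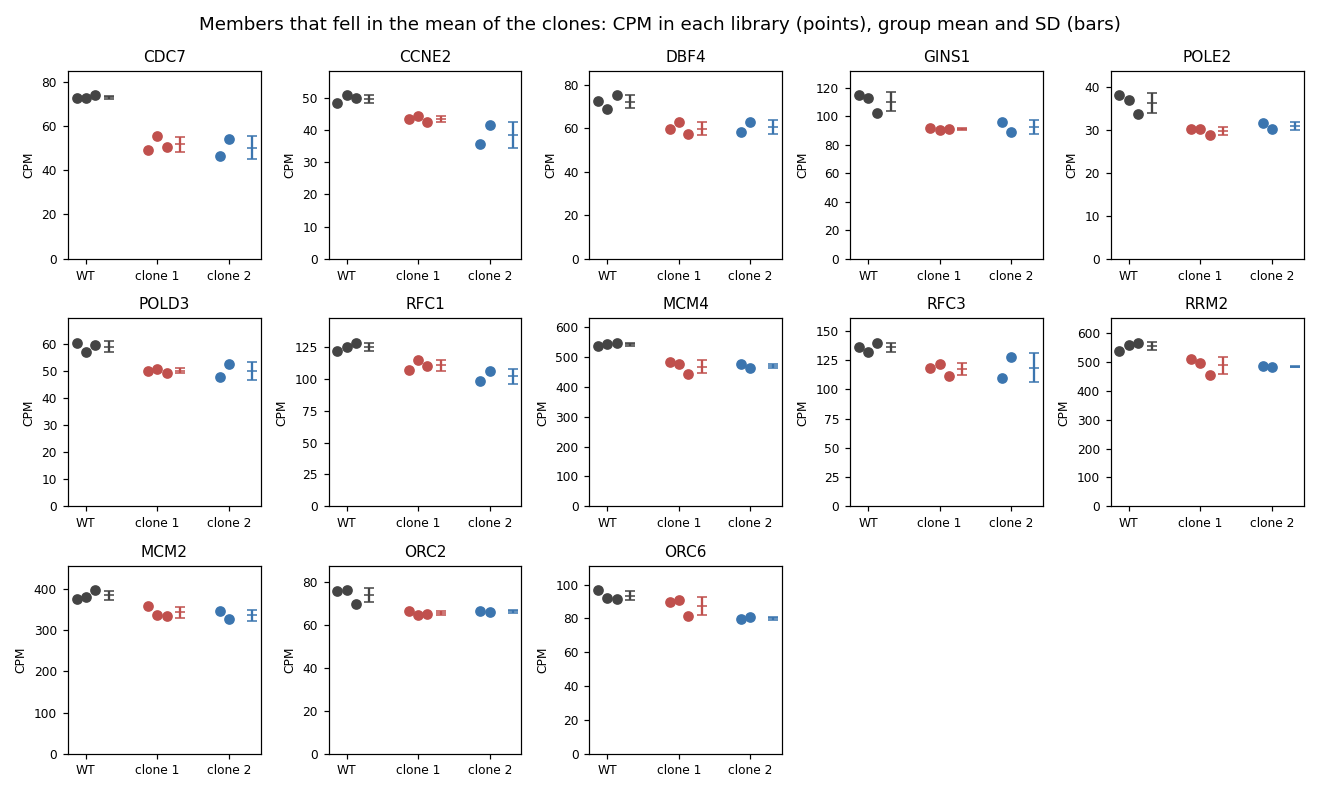
CPM of the 13 genes that fell in the mean of the clones, in each library (points), with the group mean and SD (bars), for wild type (n = 3), clone 1 (n = 3) and clone 2 (n = 2), on axes that start at 0. Relative to its level, CDC7 shows the widest gap, from 72.3 CPM in the lowest wild type library to 55.2 CPM in the highest knockout library. In CPM the gaps of MCM4 (537 to 483) and RRM2 (539 to 511) are wider.

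The second comparison took the clones 1 at a time, each against the same 3 wild type libraries, which the 2 comparisons therefore share. In clone 1, 10 of the 49 genes fell and 0 rose, where 6.64% of all features were called lower and 9.37% higher (unadjusted, 14 lower and 2 higher; DESeq2, 12 and 0). In clone 2, 8 fell and 0 rose, where 4.59% were called lower and 6.18% higher (17 lower and 0 higher unadjusted, 9 and 0 with DESeq2). For either clone, the shares of all features unadjusted and with DESeq2 are not given here, so those counts cannot be read alone. The medians of the 49 log2 fold changes were -0.06 for clone 1 and -0.08 for clone 2. Without wild type replicate 1, 2 or 3, clone 1 had 3, 5 and 6 calls, where 3.1%, 4.15% and 4.49% of all features were then called lower. Clone 2 had 3, 5 and 5, where 2.52%, 3.42% and 2.95% were. Without clone 2 replicate 1, clone 2 had 1 call, where 1.86% of all features were called lower.

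The genes called lower in both clones were CDC7, DBF4, GINS1, MCM4, POLD3 and RFC1, 6 of 49, where 3.09% of all features were. For CDC7 the log2 value was -0.50 for clone 1 (SE 0.065, adjusted p = 0.000216) and -0.54 for clone 2 (SE 0.074, adjusted p = 0.000314). DBF4 was at -0.27 and -0.26, GINS1 at -0.27 and -0.25, MCM4 at -0.21 and -0.21, POLD3 at -0.24 and -0.24, and RFC1 at -0.18 and -0.29. Called in clone 1 alone were ORC2, RFC3, POLE2 and RRM2, with POLE2 at -0.28 (adjusted p = 0.00836) and, in clone 2, -0.23 (adjusted p = 0.0524). Called in clone 2 alone were CCNE2, at -0.37 (adjusted p = 0.00412) against -0.19 in clone 1 (adjusted p = 0.0511), and ORC6, at -0.22 against -0.10.

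A direct test of clone 2 against clone 1 called 0 of the 49 genes with edgeR's quasi-likelihood test and 0 with DESeq2, where 2.09% of all features differed. At an unadjusted p below 0.05 there were 2, both lower in clone 2: CCNE2 (log2 difference -0.17, adjusted p = 0.410) and E2F1 (-0.17, adjusted p = 0.491). The differences between clones ran from -0.17 to 0.12. CDC7 differed by -0.04 (adjusted p = 0.938).

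**Figure D4:**
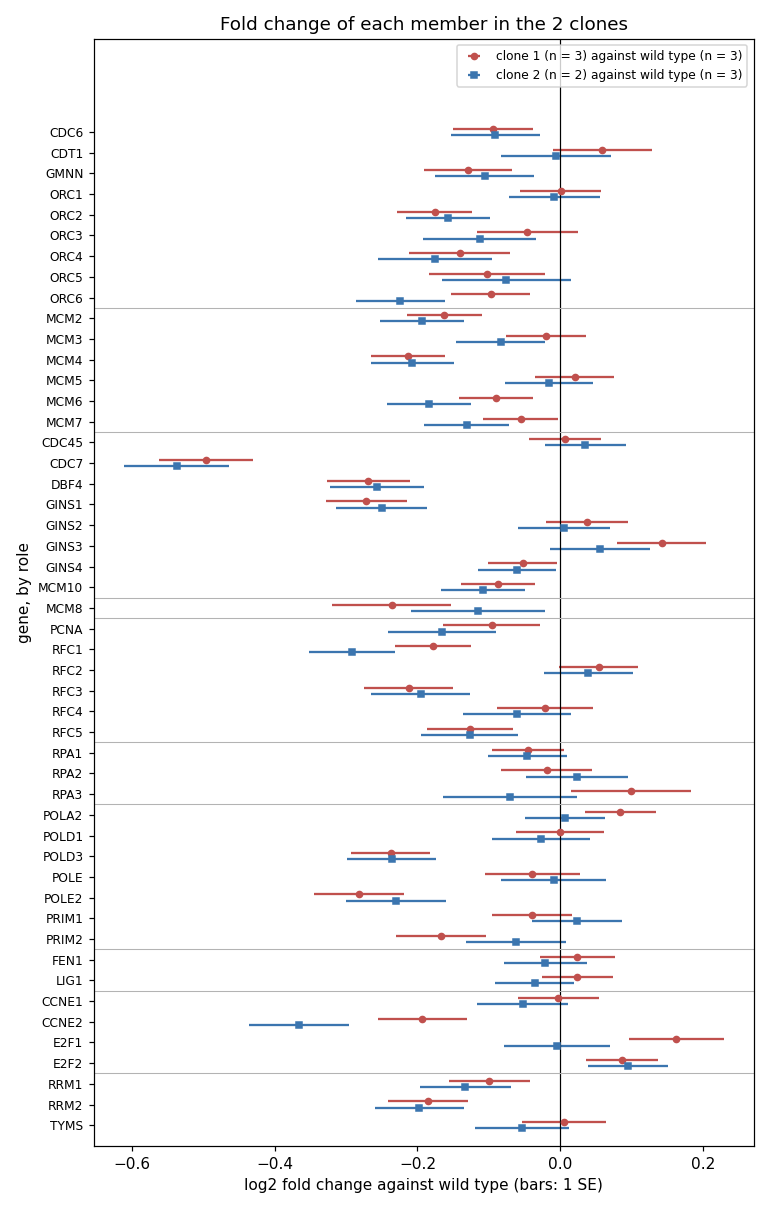
Log2 fold change of each of the 49 genes in clone 1 (circles) and clone 2 (squares) against the shared wild type libraries, with bars of 1 SE, grouped by role. CDC7 lies at -0.50 and -0.54, apart from all other genes, while CCNE2 shows the clones furthest apart, at -0.19 and -0.37.

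The single-end pair, whose knockout clone is not named in the labels, held 44140706 counts in wild type and 41265510 in the knockout and gives values without a test. In it, 44 of the 49 genes were lower in the knockout library and 5 were not, where 41.8% of 22254 features with at least 20 counts were lower. The median log2 ratio was -0.12 for the 49 genes and 0.05 for those features. CDC7 was again the furthest, at 63.0 CPM in wild type and 45.5 CPM in the knockout (log2 ratio -0.47), followed among the called genes by MCM2 (-0.29), POLE2 (-0.29) and MCM4 (-0.24). The uncalled MCM6 (-0.35) came next after CDC7 over all 49, and the uncalled MCM5 (-0.29) and MCM7 (-0.25) also lay further than MCM4. CCNE2 went the other way, at 23.8 and 25.0 CPM (0.07). The other 4 not lower were MCM8, ORC3, RPA3 and E2F2, and 12 of the 13 called genes were lower.

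The GC content of the genes moved with these results. The 13 called genes had a median GC content of 41.7% in their longest transcript, against 48.1% for the 36 not called and 48.3% for all tested genes. Of the 21 genes under 45% GC 9 fell, and of the 28 others 4 fell. Over all tested genes the same contrast called 17.4% lower and 3.58% higher under 45% GC, and 3.35% lower and 14.3% higher above it. The Spearman correlation of fold change with GC content, across genes that share the same libraries, was 0.65 over the 49 genes and 0.42 over all tested genes. Per library, the correlation of relative level with GC content lay between -0.411 and -0.249 in wild type and between -0.0492 and 0.389 in the knockout libraries, so this trend and the genotype cannot be told apart from the libraries alone.

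With the trend of each library on GC content removed, 12 genes fell and 1 rose, where 6.4% of all features were called lower and 8.28% higher. The correlation over the 49 genes was then -0.08 and their median log2 fold change -0.07. Of the 13 called genes 10 were called again. CDC7 was at -0.39 (adjusted p = 4.47e-05), MCM4 at -0.23, MCM2 at -0.29 and POLE2 at -0.20, while GINS1 moved to -0.17 (adjusted p = 0.0395), DBF4 to -0.15 (adjusted p = 0.0206) and RFC1 to -0.15. The calls of CCNE2 (-0.13, adjusted p = 0.0831), RFC3 (-0.08, adjusted p = 0.233) and ORC2 (-0.06, adjusted p = 0.459) ended. MCM7 (-0.20) and POLD1 (-0.13) were called lower and GINS3 higher (0.15). Under this correction E2F1 turned to -0.04 and CDT1 to -0.09, neither called. Over the 20 alternatives, the adjusted p ran from 2.93e-16 to 0.000674 for CDC7, from 0.000181 to 0.0395 for GINS1 and from 0.000261 to 0.0358 for DBF4. It ran from 0.000155 to 0.0975 for CCNE2, from 0.00137 to 0.273 for RFC3 and from 0.0156 to 0.459 for ORC2.

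**Figure D5:**
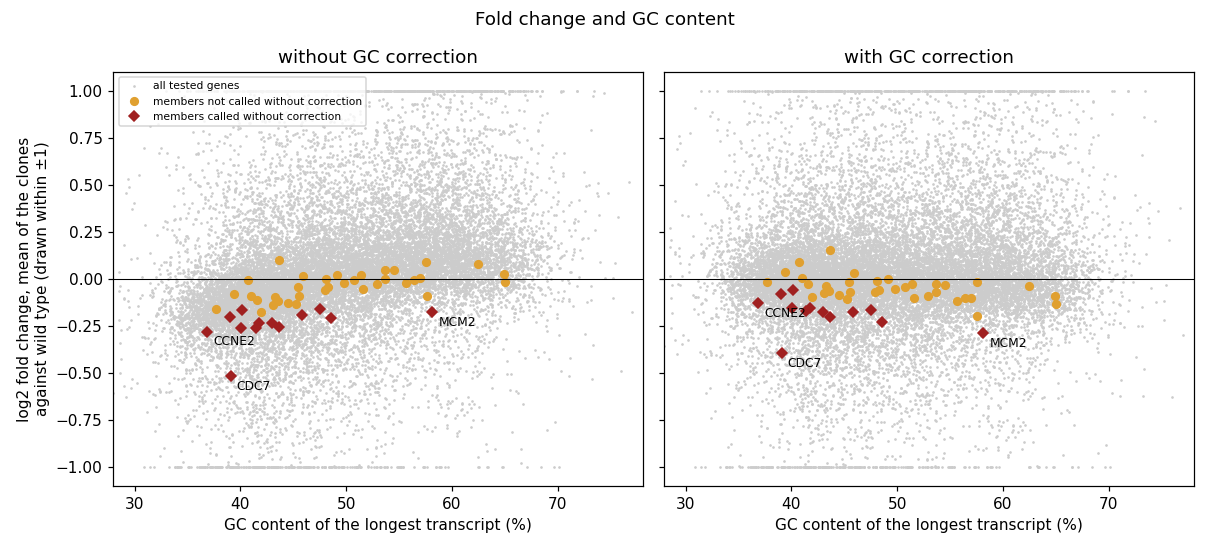
Log2 fold change (mean of both clones over wild type) by GC content of the longest transcript, without (left) and with (right) correction of each library's GC trend, for all tested genes (grey), members called lower without correction (diamonds) and members not called (circles). CDC7 stays the lowest member, at -0.52 and -0.39, while CCNE2 moves from -0.28 to -0.13.

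The sample numbers in the column names also moved with the groups: all wild type libraries and the first replicate of each clone bear numbers from 1 to 5, and the other knockout libraries numbers from 11 to 13. What the numbers mean is not stated. With these number blocks as a term, 10 of the 49 genes fell, where 10.1% of all features were called lower, and 9 of them were among the 13. CDC7 was then at -0.61, MCM8 was called (-0.32, adjusted p = 0.00167, in a range of 0.000762 to 0.510 over 20 alternatives), and the calls of MCM2, RRM2, ORC2 and ORC6 ended. Among the libraries numbered 1 to 5 alone, each clone has 1 library, so the spread among libraries comes from wild type alone. CDC7 was there at -0.61, MCM2 at -0.13 and MCM8 at -0.32, the same rounded values as with the number blocks. All wild type libraries are in the first block, so these 2 alternatives largely share 1 contrast and are not separate. CDC7, DBF4, GINS1, MCM4, POLD3 and RFC1 were called lower under every one of the 20 alternatives tried.

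Other genes of replication and of the G1 to S transition were taken as a list of 70 that does not overlap the 49. Of these, 24 fell and 5 rose, where 8.09% of all features were called lower and 9.87% higher. Their median log2 fold change was -0.12, and DESeq2 called 24 lower and 2 higher, with its share of all features not given here. CDK6, a partner of D-type cyclins, fell by 0.40 on the log2 scale (88.6, 90.4 and 89.7 CPM in wild type, 60.1, 75.0 and 64.1 CPM in clone 1, 65.5 and 72.2 CPM in clone 2; adjusted p = 0.00101). RB1, the brake on E2F factors, fell by 0.29 (adjusted p = 0.00127), as did FBXO5, an inhibitor of the anaphase-promoting complex (adjusted p = 0.00222). E2F5, a repressive E2F, fell by 0.34 and DCK, a nucleoside salvage kinase, by 0.27. With GC correction 16 fell and 2 rose, where 6.4% of all features were called lower and 8.28% higher. Of the 24, 10 fell again, CDK6 (-0.29) and RB1 (-0.14) among them, and E2F5, FBXO5 and DCK were no longer called. Without wild type replicate 1, 2 or 3, or without clone 2 replicate 1, the 29 calls came to 12, 15, 11 and 15, of which 11, 13, 10 and 14 were lower, where 3.87%, 5.29%, 5.04% and 5.15% of all features were called lower.

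The largest change in that list was a rise. CCND1, which encodes cyclin D1, stood at 2.99, 2.17 and 2.89 CPM in wild type, against 4.35, 4.39 and 4.69 in clone 1 and 13.3 and 11.9 in clone 2 (a log2 fold change of 1.48, SE 0.12, adjusted p = 2.31e-06). Its call ended with all 5 knockout libraries taken as 1 group (adjusted p = 0.0976). The remaining rises were POLD4 (0.44), CHTF8 (0.24), POLD2 (0.17) and TFDP2 (0.15), and of the 5 CCND1 and TFDP2 were called with GC correction. TFDP2 lost its call under 14 of 20 alternatives, POLD2 under 10, POLD4 under 9, CHTF8 under 5 and CCND1 under 1. CDKN1A, the p53-responsive inhibitor of cyclin kinases, was at 0.00.

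Of a list of 20 mitosis genes 5 fell and 0 rose, where 8.09% of all features were called lower and 9.87% higher, and its median log2 fold change was -0.09. Those that fell were DLGAP5 (-0.26), KIF11 (-0.26), ECT2 (-0.30), TTK (-0.25) and NUSAP1 (-0.20). With GC correction 3 of the 20 were called lower, ECT2 (-0.17), NUSAP1 (-0.13) and AURKB (-0.16), and the calls of KIF11, DLGAP5 and TTK ended. Its summed level ran from 4003 to 4194 CPM in wild type and from 3501 to 3997 CPM in the knockout libraries. Its part in the results on the replication genes was not tested.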

How the data were processed

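The deposited tables hold raw counts for genes and repeat subfamilies, which the authors did not normalize, as the values show. STAR 2.5.2a and the build hg38 (GRCh38) are named for the alignment, per the submitters' processing notes, and the names of the tables give TEToolkit as the counting tool. Libraries were made from 65 ng of RNA with a stranded mRNA kit, per the labels' protocols. Not given in the sources used here are the annotation used for counting, whether strand was used and how reads with several alignments were treated. Symbols, coordinates, lengths and GC content came from GENCODE 29 (57447 of 58051 gene identifiers matched).

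Counts passing edgeR's filterByExpr (19683 genes and 1064 repeat subfamilies) were scaled with TMM factors and tested with edgeR's robust quasi-likelihood F test, modelling a mean for each of the 3 groups of the 8 paired-end libraries, with Benjamini-Hochberg adjustment over all 20747 features. Each SE was derived from the fold change and its F statistic (their ratio, with the root of F) and is approximate. GC and length corrections removed a lowess trend (span 0.3) per library through offsets. Alternatives were DESeq2, other scalings and filters, a replicate block, a sample-number block, all knockout libraries as 1 group, and each library left out. The versions were edgeR 4.0.16, DESeq2 1.42.0 and limma 3.58.1 under R 4.3.3, and the code was tested on simulated data. Single-end log2 ratios used a prior count of 2.

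The members, the lists of other replication genes and markers, and the tests were chosen with earlier results of these data known. Values in every library are given for up to 12 called members with the smallest p, for PCNA, MCM2, CCNE1, CCNE2, E2F1, CDT1, GMNN, CDC6 and RRM2, and for the member with the smallest p in each role group without a call. Of the other replication genes, up to 5 per direction with the largest change were named, and CDKN1A, CCND2, POLA1, ORC6 and the marker genes given by name were added after their values were seen.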

Additional observations from a re-analysis of the deposited data

Results flagged for a closer look

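None of the 49 genes passed the test of clone 2 against clone 1, but 2 D-type cyclin genes of the wider replication list did. CCND1 was higher in clone 2 than in clone 1 by 1.49 on the log2 scale (edgeR adjusted p = 1.05e-05), having risen in both. CCND2 was higher in clone 2 than in clone 1 by 0.87 (adjusted p = 3.45e-05): it stood at 19.6, 20.8 and 22.8 CPM in wild type, against 13.5, 15.0 and 13.8 in clone 1 and 26.7 and 24.9 in clone 2. It was thus below wild type in all 3 libraries of clone 1 and above it in both of clone 2. Of the cell type markers outside mitosis, 3 also passed the test between the clones: KRT8 was higher in clone 2 by 1.43 on the log2 scale and COL1A1 by 0.41 (adjusted p = 0.0247), and EPCAM differed by -1.27 (adjusted p = 0.00942).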

How the results depend on the processing

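In the mean of the clones, the sign was followed through the 20 alternatives for the 13 called members and RBM4. It was also followed for the called other replication genes with the largest changes. None of these changed sign. The sign of the remaining called genes, and of calls in 1 clone or between the clones, was not followed in this way. The uncalled members followed in this way were PCNA, CCNE1, E2F1, CDT1, GMNN, CDC6, MCM8, RPA1 and LIG1. Among them the sign turned for CDT1 and LIG1 under 6 of 20 alternatives each, for E2F1 under 2 and for CCNE1 under 1. Uncalled members outside this list turned too: with GC correction MCM5 went from 0.00 to -0.10 and ORC3 from -0.08 to 0.04, among others. The count of called members was 13 in the mean of the clones and 7 to 17 when 1 library was left out, 10 in clone 1 (3 to 11), 8 in clone 2 (1 to 12) and 0 between the clones (0 throughout). With the replicate block the counts were 13, 12, 9 and 0. The share of all features called lower moved with the libraries too, so these counts cannot be read alone. In the mean of the clones it went from 8.09% to 3.87% without wild type replicate 1. In clone 2 it went from 4.59% to 1.86% without clone 2 replicate 1. The shares beside the upper ends of these ranges and the replicate block are not given here. The replicate numbers were not taken to pair the samples: same-numbered libraries of wild type and clone 1 correlated at -0.0479, -0.0381 and -0.224 in their deviations from the group means, and those of wild type and clone 2 at 0.0119 and 0.0499, although those of the 2 clones correlated at 0.234 and 0.184. Of the 70 other replication genes 29 were called, 11 to 31 with 1 library left out and 30 with the replicate block. With GC correction 18 were called, and 19 with both the replicate block and GC correction. Of all features, 8.09% were called lower and 9.87% higher without GC correction, and 6.4% and 8.28% with it. The shares beside the 31 and the replicate-block counts are not given here, so these counts cannot be read alone either. The call of CCND1 ended with all knockout libraries as 1 group (adjusted p = 0.0976). Per kb of the longest transcript, the median member in wild type stood at 32.3 CPM, against 24.4 per kb of merged exon. The members' 95% intervals had a median half-width of 0.11 on the log2 scale, which limits what could be called.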
